A study of Mus musculus with 8 samples.

Results

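The SLC25 family of mitochondrial carriers was examined in whole kidneys of Maf conditional KO and Maf flox/flox mice. Members were the rows of the count table named *Slc25a* plus a number that had at least 10 counts in at least 4 libraries. There were 43 members among 47 such rows and among 55367 genes listed. RNA-Seq libraries came from 4 Maf conditional KO and 4 Maf flox/flox mice, labelled as separate C57BL/6J animals aged 8 weeks, and each mouse was 1 replicate. Maf conditional KO mice carried floxed *c-Maf* and a CAG-Cre-ERTM transgene, a TAM-inducible Cre driven by a promoter active in most cells, so that deletion was not limited to the kidney. Maf flox/flox mice carried the same floxed allele without Cre and also received TAM. Effects of Cre and of *c-Maf* loss therefore cannot be told apart, and TAM and the floxed allele are shared by both groups. The comparison asks which carrier genes differed in the kidney when *c-Maf* was deleted in adult mice.

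SLC25 proteins sit mostly in the inner mitochondrial membrane and exchange metabolites between the cytosol and the matrix. They pass ATP, ADP, and phosphate for oxidative phosphorylation, dicarboxylates and amino acids for gluconeogenesis and ammonia handling, acylcarnitines for fatty acid oxidation, and cofactors such as NAD and CoA. Proximal tubule cells, which are rich in mitochondria, use these routes to power reabsorption, and c-Maf is a basic leucine zipper transcription factor of the proximal tubule.

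Libraries held 16649129 to 22990257 counts, and 20149 genes passed the filter on low counts and were tested. *Maf* stood at 9.06 to 34.5 CPM (counts brought to a common library size by TMM) in Maf conditional KO and 305 to 380 CPM in Maf flox/flox mice. Mitochondrially encoded genes took 17.1% to 32.3% of the counts, the most in Maf conditional KO mouse 1. *Xist*, transcribed from the inactive X chromosome of females, had 2 counts in that mouse, 6 and 22 in Maf flox/flox mice 3 and 4, and 17618 to 22387 in the other 5 mice. The labels used here give no sex. Markers of the nephron segments were present, and hepatocyte markers were checked because the extraction text of the labels speaks of liver. Of these, *Cps1* had 0 to 2 counts, *Alb* 13 to 196, *Fgb* 22 to 72, *Apoa2* 18 to 53, and *Apob* 8540 to 15231. Of 5 markers of the S1 and S2 segments, 3 (*Slc5a2*, *Slc5a12*, and *Slc34a1*) were lower in Maf conditional KO mice and none was at 0. The means of the other 2 were 6760 against 7580 CPM for *Lrp2* and 1280 against 1310 CPM for *Cubn*. Summed, these 5 markers gave 7610 to 11200 CPM in Maf conditional KO and 12800 to 14700 CPM in Maf flox/flox mice. Most of these sums was *Lrp2* and *Slc34a1*, the latter with means of 1740 against 4100 CPM. *Lrp2* was lowest in Maf conditional KO mouse 1, at 4470 CPM. In whole-kidney RNA, fewer cells of a type and less RNA per cell cannot be told apart, and the part of these markers in the results for the carriers was not tested.

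The carriers of the kidney ranged from abundant to scarce transcripts, led by those for glutathione, adenine nucleotides, and phosphate. Levels per length are given as RPKM, computed from the TMM-scaled counts and the exonic length in the file. That length counts every annotated exon, and the order of the genes depends on it. For example, *Slc25a39* and *Slc25a3* were at 418 and 414.6 CPM in Maf flox/flox mice, with lengths of 2756 and 5550 bases. In Maf flox/flox mice the highest was *Slc25a39*, needed for mitochondrial glutathione import, at 152 ± 30.6 RPKM (SD, n = 4). *Slc25a5*, the ADP/ATP carrier ANT2, followed at 126 ± 8.57 RPKM, which was within 1 SD of *Slc25a39*, although 45.7% of its 36-base sequences also occur in other genes and its level is uncertain. *Slc25a4*, the ADP/ATP carrier ANT1, stood at 90.5 ± 12.2 RPKM. The phosphate carrier *Slc25a3* and the dicarboxylate carrier *Slc25a10* were at 74.7 ± 3.3 and 71.6 ± 2.86 RPKM, a difference smaller than the spread between mice. The 10 highest were completed by the oxoglutarate carrier *Slc25a11* (49.3 RPKM), the NAD carrier *Slc25a51* (37 RPKM), the citrate carrier *Slc25a1* (32.6 RPKM), the ornithine carrier *Slc25a15* (26.7 RPKM), and the aspartate/glutamate carrier *Slc25a13* (26.4 RPKM). Means of *Slc25a15* and *Slc25a13* differed by less than their spread. In all, 5 members exceeded 50 RPKM and 4 were below 1 RPKM, the lowest being *Slc25a43* at 0.312 ± 0.175 RPKM. Of the summed SLC25 RPKM in Maf flox/flox mice, nucleotide and phosphate carriers, *Slc25a5* included, made up 35.6%, iron and glutathione carriers 17.5%, di- and tricarboxylate carriers 16.4%, and cofactor carriers 12.6%.

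**Figure D1:**
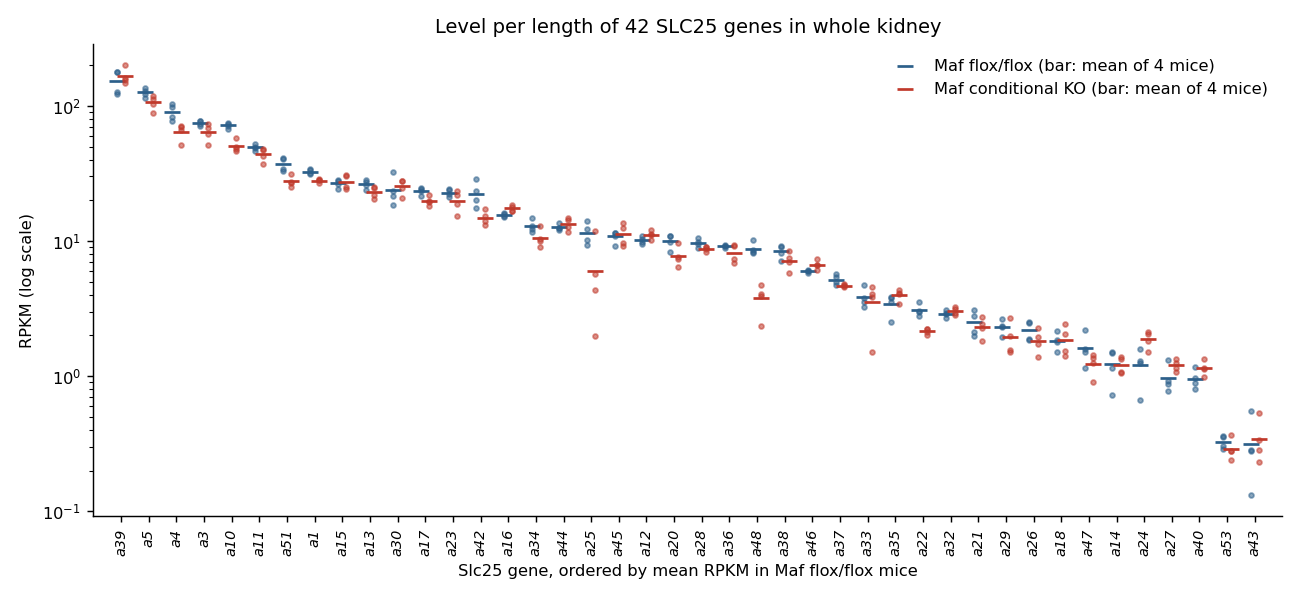
Level per length of 42 of the 43 members, in RPKM on a log axis, with 1 point per mouse and a bar at the mean of 4 mice per genotype. The members run from 152 RPKM for *Slc25a39* to 0.312 RPKM for *Slc25a43* in Maf flox/flox mice.

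In Maf conditional KO kidneys 3 carriers were lower and none was higher. *Slc25a48*, linked to mitochondrial choline import, fell to 42.9% of the Maf flox/flox level. *Slc25a10*, which exchanges malate and succinate for phosphate, fell to 70.6%, and *Slc25a22*, a mitochondrial glutamate carrier, fell to 69.6%. These were 3 of 43 members at an adjusted *P* under 0.05 by edgeR's quasi-likelihood test with Benjamini-Hochberg adjustment over all tested genes, against 1.58% of all genes tested that were called lower. None of 43 was called higher, against 0.586% of all genes, and DESeq2, edgeR's exact test, and limma also called none higher, against 1.62%, 1.06%, and 0.725% of all genes. At an unadjusted *P* under 0.05, 11 members were lower and 2 were higher, against 7.44% and 6.58% of all genes. Of the 43 members, 27 (62.8%) had a log2 fold change below 0, against 49.5% of all genes. The median log2 fold change of the members was -0.15, and that of all tested genes was 0.003.

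*Slc25a48* (chr13:56438355-56474239, plus strand, GRCm38) was at 7.89, 16.1, 13.3, and 13.6 CPM in Maf conditional KO mice 1 to 4. In Maf flox/flox mice 1 to 4 it was at 27.6, 28.7, 27.8, and 34.4 CPM. Each Maf conditional KO mouse lay below each Maf flox/flox mouse, with mouse 1 the lowest of all. Mean levels were 12.7 ± 3.45 CPM and 29.6 ± 3.24 CPM (SD, n = 4 each). This gave a log2 fold change of -1.22 (SE 0.18, 95% interval -1.62 to -0.81, adjusted *P* = 0.005857). It remained past the threshold in each of the 8 fits that left out 1 mouse, with log2 fold changes from -1.35 to -1.04.

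*Slc25a10* (chr11:120491840-120499187, plus strand) was at 166, 172, 161, and 199 CPM in Maf conditional KO mice 1 to 4. The corresponding values in Maf flox/flox mice were 256, 234, 245, and 253 CPM. The genotypes did not overlap, with the nearest values at 199 and 234 CPM, and Maf conditional KO mouse 4 was the highest of its group. Its log2 fold change was -0.50 (SE 0.09, 95% interval -0.70 to -0.31, adjusted *P* = 0.01228). The call was lost without Maf conditional KO mouse 2 (adjusted *P* = 0.05413) and without mouse 3 (adjusted *P* = 0.06314), where log2 fold changes were -0.50 and -0.47. Exons of *Gm11788* on the opposite strand cover 6.6% of its exonic bases, and counting did not use strand.

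*Slc25a22* (chr7:141429744-141437892, minus strand) was at 13.4, 12, 13.4, and 12.8 CPM in Maf conditional KO mice 1 to 4. Maf flox/flox mice 1 to 4 had 21.2, 16.7, 18.2, and 18 CPM. The Maf conditional KO mice lay close together and below the lowest Maf flox/flox mouse, and Maf flox/flox mouse 1 was the highest. The log2 fold change was -0.52 (SE 0.11, 95% interval -0.76 to -0.29, adjusted *P* = 0.02897). This call held in 2 of 8 fits that left out 1 mouse, without Maf conditional KO mouse 1 (adjusted *P* = 0.0404) and without Maf flox/flox mouse 2 (0.04506). In the fits without Maf conditional KO mice 2, 3, and 4 and Maf flox/flox mice 1, 3, and 4, adjusted *P* values were 0.1148, 0.08409, 0.07063, 0.08347, 0.07592, and 0.06385, while the log2 fold change stayed between -0.57 and -0.45 over all 8.

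c-Maf binds Maf recognition elements (MAREs), so the promoters of the called carriers are shown. RefSeq promoters on GRCm38.p6 (250 bases before to 50 after a start site) were found for 34 of 43 members, giving 44 promoters. The palindromic TRE-type MARE, the palindromic CRE-type MARE, the TRE core with a single MARE flank, and the flank TGCTGA alone were searched on both strands. TGCTGA also lies within each palindrome. The first 3 were in 0 of 44 member promoters and in 0.00304%, 0%, and 0.137% of all 32851 promoters. TGCTGA was in 11.4% of member promoters and in 19.5% of all promoters, and none of the 3 called carriers held it in this window. The 250 bases before the start are printed 5′ to 3′ on the gene's strand, with CpG pairs in capitals, for *Slc25a48* (chr13:56438105-56438354, plus strand), *Slc25a10* (chr11:120491587-120491836, plus strand), and the first of the annotated *Slc25a22* starts (chr7:141437875-141438124, minus strand).
Slc25a48: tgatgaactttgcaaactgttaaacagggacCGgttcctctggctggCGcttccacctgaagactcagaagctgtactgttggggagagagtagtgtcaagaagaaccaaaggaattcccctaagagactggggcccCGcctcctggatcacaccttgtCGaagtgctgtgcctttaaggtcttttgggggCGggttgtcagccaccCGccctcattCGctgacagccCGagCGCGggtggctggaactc
Slc25a10: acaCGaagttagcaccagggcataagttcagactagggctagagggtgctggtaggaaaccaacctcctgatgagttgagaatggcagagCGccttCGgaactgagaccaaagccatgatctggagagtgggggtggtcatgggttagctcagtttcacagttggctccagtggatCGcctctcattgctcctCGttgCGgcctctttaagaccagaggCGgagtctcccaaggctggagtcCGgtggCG
Slc25a22: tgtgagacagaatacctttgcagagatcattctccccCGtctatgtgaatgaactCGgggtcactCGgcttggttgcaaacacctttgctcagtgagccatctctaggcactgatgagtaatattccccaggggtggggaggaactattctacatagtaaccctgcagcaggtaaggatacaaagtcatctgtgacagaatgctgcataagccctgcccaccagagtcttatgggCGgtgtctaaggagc
The 3 stretches held 10, 9, and 4 CpG pairs, beside a median of 11.5 over the member promoters and 6 over all promoters. The TGCTGA matches among the members lay in *Slc25a34*, *Slc25a40*, *Slc25a16*, *Slc25a21*, and *Slc25a5*. They are shown with the bases around them, the match or its reverse complement in capitals. Their positions are chr4:141623841-141623864 (minus strand), chr5:8422825-8422848 (plus), chr10:62920444-62920467 (plus), chr10:62920498-62920521 (plus), chr12:57160749-57160772 (minus), and chrX:36795526-36795549 (plus). These matches describe the letters and not a binding site.
Slc25a34: ccatagcccTGCTGAtgaacagca
Slc25a40: gcccccggaTGCTGAccacgcccc
Slc25a16: gttcgctcgTGCTGAgactgcaag
Slc25a16: cgcaaacctTCAGCAggaaacccg
Slc25a21: actgtaagtTGCTGAggctgcttc
Slc25a5: ccgagccacTCAGCAgctctgcca

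Beside the 3 called carriers, 4 more members were lower in each Maf conditional KO mouse than in each Maf flox/flox mouse without passing the adjusted threshold. Values did not overlap in this direction for 7 of 43 members (16.3%), against 5.62% of all genes tested, and in the other direction for 1 of 43 (2.33%), against 4.17%. The NAD carrier *Slc25a51* was at 172, 148, 152, and 138 CPM in Maf conditional KO and 181, 187, 222, and 226 CPM in Maf flox/flox mice 1 to 4 (log2 fold change -0.42, SE 0.10, adjusted *P* = 0.06728). The highest Maf conditional KO mouse was just under the lowest Maf flox/flox mouse. The CoA carrier *Slc25a42* was at 78.5, 91.6, 84.1, and 103 CPM against 104, 121, 172, and 140 CPM (log2 fold change -0.59, SE 0.15, adjusted *P* = 0.06877), with Maf flox/flox mouse 3 the highest and the nearest values of the groups at 103 and 104 CPM. ANT1, *Slc25a4*, was at 121, 163, 167, and 155 CPM against 242, 232, 196, and 182 CPM (log2 fold change -0.49, SE 0.12, adjusted *P* = 0.07248). Here Maf conditional KO mouse 1 was the lowest, and Maf flox/flox mice 3 and 4 were lower than mice 1 and 2. The citrate carrier *Slc25a1* showed a small, even difference, with 60.8, 60.9, 57.9, and 62.3 CPM against 68.3, 68.3, 72.3, and 73.8 CPM (log2 fold change -0.22, SE 0.07, adjusted *P* = 0.1657). *Slc25a16*, a relative of the CoA carriers, was at 85.4, 80.5, 79.8, and 88.9 CPM against 73.0, 76.4, 77.1, and 71.9 CPM (log2 fold change 0.17, SE 0.07, adjusted *P* = 0.3448).

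**Figure D2:**
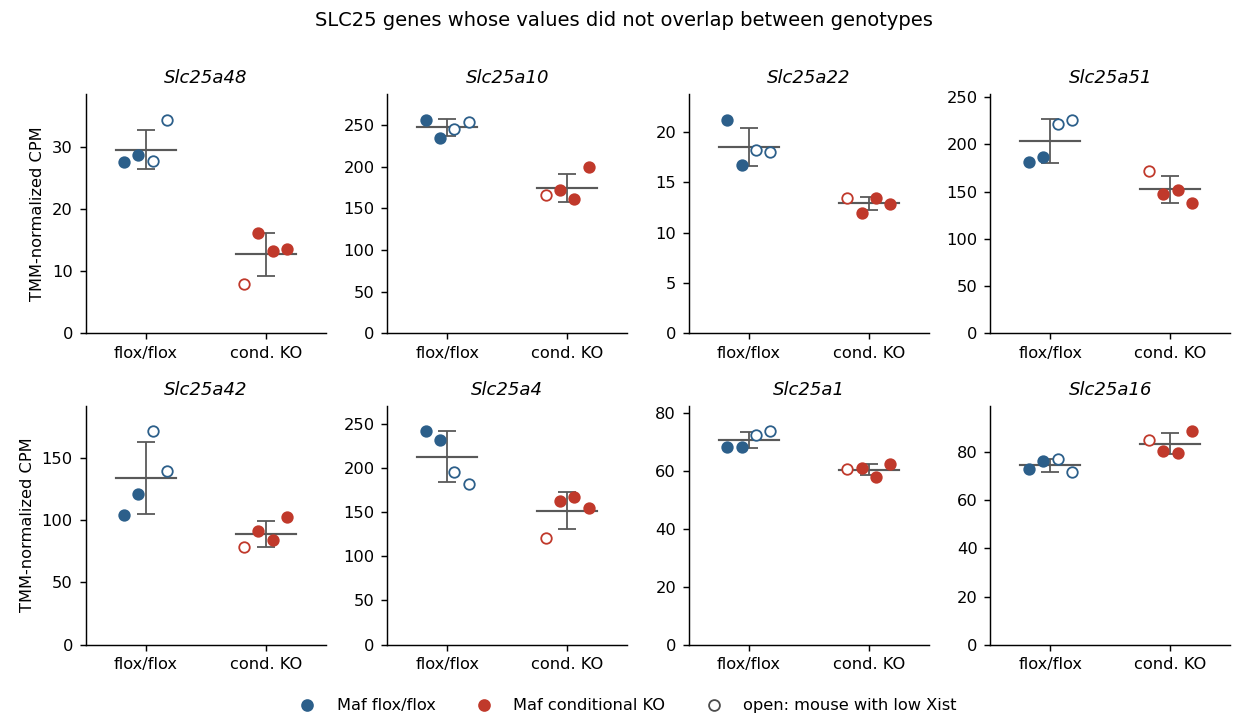
TMM-normalized CPM of the 8 members whose values did not overlap between genotypes, with 1 point per mouse, a bar at the mean, and whiskers of 1 SD (n = 4). Open points are the 3 mice with low *Xist*, and *Slc25a48* is at 7.89 to 16.1 CPM in Maf conditional KO and 27.6 to 34.4 CPM in Maf flox/flox mice.

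Among the 8 nucleotide and phosphate carriers that were tested, none passed the quasi-likelihood threshold and 7 had log2 fold changes below 0 (median -0.22). Over all genes, 49.5% were below 0. At an unadjusted *P* under 0.05, 2 were lower and 1 was higher, against 7.44% and 6.58% of all genes. DESeq2 called 1 lower, *Slc25a4*, against 2.87% of all genes. ANT2, *Slc25a5*, had a log2 fold change of -0.25 (SE 0.10, adjusted *P* = 0.2986), with the same uncertainty as its level. The phosphate carrier *Slc25a3* had a log2 fold change of -0.23 (SE 0.11, adjusted *P* = 0.3742). The ATP-Mg/phosphate carriers, which adjust the adenine nucleotide content of the matrix in response to calcium, had log2 fold changes of different sign, none past the threshold. *Slc25a25* was at 15.5, 44.9, 34, and 93.7 CPM in Maf conditional KO and 96.8, 110, 79.1, and 73.5 CPM in Maf flox/flox mice. Maf conditional KO mouse 4 stood among the Maf flox/flox mice and the other 3 stood below them (log2 fold change -0.94, SE 0.52, adjusted *P* = 0.493). The estimate was -1.51 without Maf conditional KO mouse 4 and -0.64 without mouse 1. *Slc25a24* was at 6.26, 5.19, 7.04, and 7.31 CPM against 5.44, 4.47, 4.31, and 2.29 CPM, and the groups overlapped (log2 fold change 0.64, SE 0.24, adjusted *P* = 0.2451). *Slc25a23* had a log2 fold change of -0.20 (SE 0.12), and the pyrimidine nucleotide carriers *Slc25a36* and *Slc25a33* had -0.15 (SE 0.11) and -0.12 (SE 0.29). *Slc25a33* was at 2.85, 8.68, 7.32, and 7.63 CPM in Maf conditional KO mice 1 to 4, and without mouse 1 its log2 fold change was 0.13.

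None of the 7 cofactor carriers passed the threshold, and the median log2 fold change was -0.24. At an unadjusted *P* under 0.05, 3 were lower and 1 was higher, against 7.44% and 6.58% of all genes. By edgeR's exact test *Slc25a42* was called lower, against 1.98% of all genes. DESeq2 called *Slc25a42* and *Slc25a51* lower, against 2.87%. *Slc25a17*, a peroxisomal carrier of CoA and related cofactors, had a log2 fold change of -0.24 (SE 0.09, adjusted *P* = 0.2187). The S-adenosylmethionine carrier *Slc25a26* stood at -0.26 (SE 0.18) and the folate carrier *Slc25a32* at 0.06 (SE 0.10). The 95% interval of *Slc25a32* (-0.15 to 0.28) did not reach the log2 fold change of *Slc25a10* or *Slc25a48*.

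Of 4 di- and tricarboxylate carriers, 1 was called lower, *Slc25a10*, against 1.58% of all genes. All 4 had log2 fold changes below 0 (median -0.20), against 49.5% of all genes. Besides *Slc25a10* and *Slc25a1*, the oxoglutarate/malate carrier *Slc25a11*, a part of the malate-aspartate shuttle, was at -0.17 (SE 0.09, adjusted *P* = 0.4507). The oxodicarboxylate carrier *Slc25a21* was at -0.11 (SE 0.17). Its sign depended on the mice included, with 0.01 without Maf flox/flox mouse 3 and 0.07 among the 5 mice with high *Xist*. Summed over the 4, levels per length were 116, 128, 118, and 136 RPKM in Maf conditional KO and 154, 151, 156, and 163 RPKM in Maf flox/flox mice. The groups did not overlap, with *Slc25a10* alone at means of 50.5 and 71.6 RPKM, beside 125 and 156 RPKM for the sum. The sum therefore partly restates the call of *Slc25a10*.

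Of 8 amino acid carriers, 1 was called lower, *Slc25a22*, against 1.58% of all genes, and the median log2 fold change was -0.09. The aspartate/glutamate carriers of the malate-aspartate shuttle differed in sign without either passing the threshold. *Slc25a13* was at -0.19 (SE 0.09, adjusted *P* = 0.3784) and *Slc25a12* at 0.13 (SE 0.08, adjusted *P* = 0.5465). The ornithine carrier *Slc25a15* was at 140, 172, 171, and 136 CPM in Maf conditional KO and 136, 157, 149, and 159 CPM in Maf flox/flox mice, and its 95% interval was narrow (-0.18 to 0.27 around 0.05). The other members, *Slc25a29* for basic amino acids, *Slc25a38* for glycine, *Slc25a18* for glutamate, and *Slc25a44* for branched-chain amino acids, ran from -0.25 to 0.08. Summed levels per length of the 8 genes were 79.2 to 95.6 RPKM in Maf conditional KO and 85.5 to 94.2 RPKM in Maf flox/flox mice and overlapped.

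The carnitine carrier and its relatives held the largest called change among the members, that of *Slc25a48*, and had a median of -0.37. This was 1 of 4 called lower, against 1.58% of all genes. The carnitine/acylcarnitine carrier *Slc25a20*, which brings acyl groups into the matrix for fatty acid oxidation, was at 30.9, 35.7, 36.8, and 46.8 CPM against 52.5, 52.5, 47.8, and 40.2 CPM. Only Maf conditional KO mouse 4 and Maf flox/flox mouse 4 crossed over (log2 fold change -0.36, SE 0.13, adjusted *P* = 0.2246). *Slc25a47* and *Slc25a45* were at -0.38 (SE 0.23) and 0.05 (SE 0.13). Summed levels per length of the 4 were 18.8, 26.0, 26.4, and 24.6 RPKM against 31.4, 33.1, 28.9, and 31.2 RPKM.

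No gene of the 3 remaining groups passed the threshold in either direction, and DESeq2, edgeR's exact test, and limma called none of them. At an unadjusted *P* under 0.05, only *Slc25a34*, a carrier of unassigned substrate, was lower, and none was higher, against 7.44% and 6.58% of all genes. Iron and glutathione carriers had a median of -0.01, with the mitoferrins *Slc25a37* and *Slc25a28* at -0.15 (SE 0.09) and -0.14 (SE 0.08) and the glutathione carriers *Slc25a39* and *Slc25a40* at 0.12 (SE 0.15) and 0.26 (SE 0.16). Uncoupling-protein relatives (*Slc25a14*, *Slc25a27*, and *Slc25a30*) had a median of 0.08. *Slc25a34*, *Slc25a53*, *Slc25a43*, *Slc25a46*, a protein of the outer membrane that takes part in mitochondrial fission, and *Slc25a35* had a median of 0.12. *Slc25a43* rested on 4 to 20 counts per mouse, and Rangrf exons on the opposite strand cover 31.3% of the exonic bases of *Slc25a35*.

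**Figure D3:**
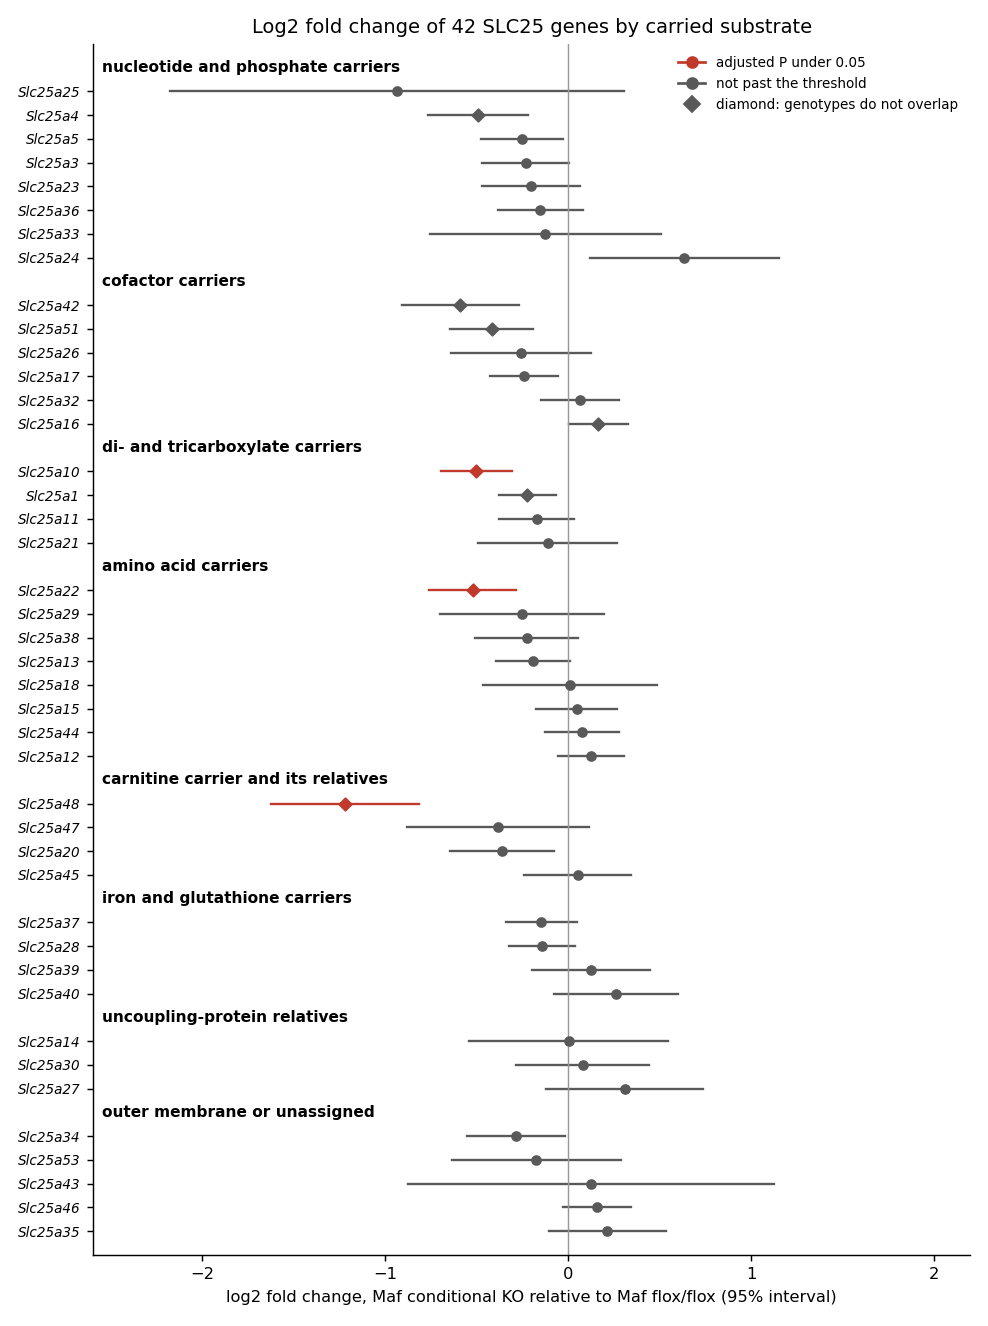
Log2 fold change of 42 of the 43 members with its 95% interval, grouped by carried substrate. Red marks an adjusted *P* under 0.05 (*Slc25a48*, *Slc25a10*, and *Slc25a22*), and diamonds mark the 8 members without overlap between genotypes.

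Summed over the 43 members, SLC25 transcripts were at 2830, 3106, 2932, and 2990 CPM in Maf conditional KO and 3239, 3336, 3528, and 3409 CPM in Maf flox/flox mice 1 to 4. The groups did not overlap on this scale. As a share of all counts, without TMM scaling, they took 0.242% to 0.332% in Maf conditional KO and 0.292% to 0.354% in Maf flox/flox mice, and the groups overlapped. The 40 members that were not called cover a range of precision, with a median SE of 0.125 over all 43. For 22 members the 95% interval lay within 0.5 on the log2 scale on both sides of 0.

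Carriers that moved with *Xist* were about as frequent as such genes in general. In a fit with *Xist* added as a covariate, the *Xist* term passed the threshold for 6 of 43 members (14%), against 11.2% of all genes tested. Of these, 3 were higher with *Xist* and 3 were lower, against 5.33% and 5.86% of all genes. These shares were near the background, so the values of the 6 describe single genes and not the family. *Slc25a39* was at 549, 488, and 494 CPM in the 3 mice with low *Xist* and at 339 to 440 CPM in the other 5, whatever the genotype. *Slc25a21* (13.4 to 15.1 CPM against 8.82 to 11.8 CPM) was also higher in the mice with low *Xist*, and *Slc25a33* (2.85 to 6.7 CPM against 7.16 to 8.85 CPM) was lower. *Slc25a4* and *Slc25a23* rose and *Slc25a51* fell with *Xist* within each genotype. Since *Xist* was low in 1 Maf conditional KO and 2 Maf flox/flox mice, this difference between mice was spread over both genotypes.

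Taking *Xist* into account raised the number of carriers called lower and left the number called higher at 0. The share of all genes called lower also rose, from 1.58% without the covariate to 4.23% with it, so the rise was not particular to the carriers. With the covariate, 8 of 43 members were lower, against 4.23% of all genes, and none was higher, against 2.59%. The 8 were *Slc25a48*, *Slc25a10*, *Slc25a22*, *Slc25a4* (log2 fold change -0.56, adjusted *P* = 8.405e-05), *Slc25a51* (-0.37, 0.003126), *Slc25a20* (-0.42, 0.01599), *Slc25a3* (-0.29, 0.04228), and *Slc25a34* (-0.34, 0.04969). Among the 5 mice with high *Xist*, 3 Maf conditional KO and 2 Maf flox/flox, 5 members were lower and none was higher, against 2.22% and 1.53% of all genes. These were *Slc25a48* (-0.97), *Slc25a10* (-0.47), *Slc25a22* (-0.58), *Slc25a4* (-0.55), and *Slc25a51* (-0.34). *Slc25a42* had a log2 fold change of -0.28 among these 5 mice and -0.54 with the covariate (adjusted *P* = 0.07724), and was called in neither fit. Its *Xist* term did not pass the threshold (adjusted *P* = 0.5976).

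**Figure D4:**
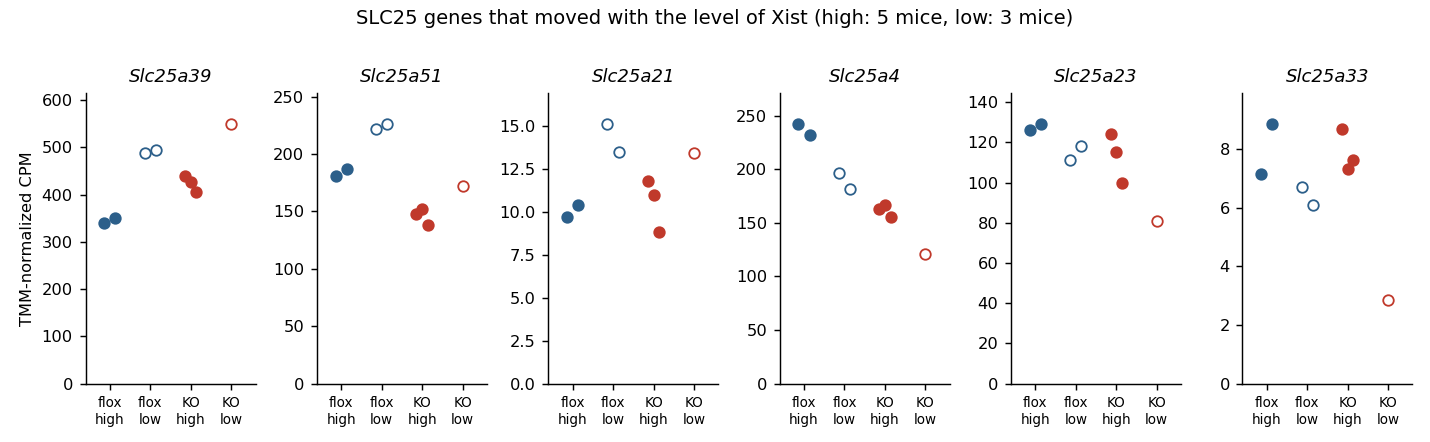
TMM-normalized CPM of the 6 members whose *Xist* term passed the threshold, with 1 point per mouse, by genotype and by high (5 mice) or low (3 mice) *Xist*. *Slc25a39* is at 488 to 549 CPM in the 3 mice with low *Xist* and 339 to 440 CPM in the others.

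The calls of the leading carriers depended on the setting to different degrees. *Slc25a48* was called under each of the 20 fits tried here, with the smallest log2 fold change, -0.97, among the 5 mice with high *Xist*. *Slc25a10* and *Slc25a22* were also called with 2 other scaling methods, by limma after quantile normalization, and by DESeq2 and edgeR's exact test. With upper-quartile scaling, *Slc25a22* was only just past the threshold (adjusted *P* = 0.04912, quasi-likelihood test). Both calls were lost in some of the fits that left out 1 mouse, as given above. By limma the called members were the same 3, against 1.39% of all genes, and the exact test called 4, against 1.98%, adding *Slc25a42* (adjusted *P* = 0.0337). When every gene with a count in any mouse was kept, 6 were lower, against 1.08% of all genes, and at an adjusted *P* under 0.01 only *Slc25a48* was, against 0.715%. DESeq2 called 6 members lower, against 2.87% of all genes, adding *Slc25a4* (adjusted *P* = 0.01592), *Slc25a42* (0.01147), and *Slc25a51* (0.01343).

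**Figure D5:**
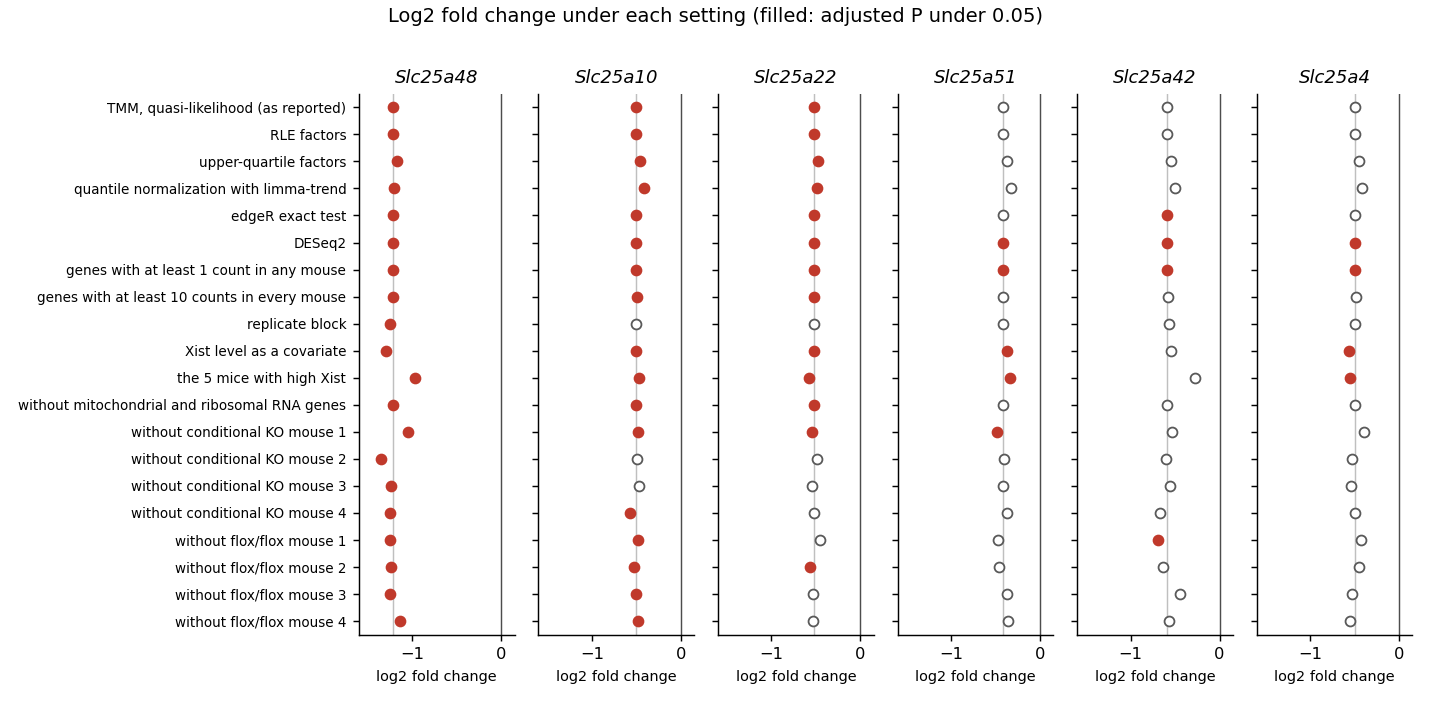
Log2 fold changes of 6 carriers (columns) under each setting (rows), including the fits that leave out 1 mouse. Filled points have an adjusted *P* under 0.05, and the grey line is the value reported, for example -1.22 for *Slc25a48* and -0.50 for *Slc25a10*.

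Enzymes that make or use the substrates carried by SLC25 proteins were examined beside the carriers. Of 28 listed, 27 were tested (*Otc* had no counts in any mouse), 3 were lower, and none was higher. Over all genes 1.58% were called lower. At an unadjusted *P* under 0.05, 8 enzymes were lower and 1, *Bckdhb*, was higher, against 7.44% and 6.58% of all genes, and 9 were lower without overlap, against 5.62%. DESeq2 called 5 lower, adding *Idh2* and *Pck1*, against 2.87% of all genes, and edgeR's exact test called 4, adding *Pck1*, against 1.98%. Neither called any higher, against 1.62% and 1.06% of all genes. *Bckdha*, a subunit of the branched-chain ketoacid dehydrogenase, was at 38.8 ± 2.77 CPM in Maf conditional KO and 65.3 ± 3.02 CPM in Maf flox/flox mice (log2 fold change -0.75, SE 0.08, adjusted *P* = 0.0003213). *Cpt2*, which turns the acylcarnitines brought in by *Slc25a20* back into acyl-CoA, was at 88.2 ± 13.3 and 140.6 ± 7.37 CPM (-0.67, SE 0.11, adjusted *P* = 0.005949). *Pcx*, pyruvate carboxylase, was at 453.6 ± 35.6 and 725.6 ± 91 CPM (-0.68, SE 0.11, adjusted *P* = 0.00656). Each of the 3 stayed past the threshold in all 8 fits that left out 1 mouse. With *Xist* as a covariate 6 enzymes were called lower, against 4.23% of all genes, namely *Bckdha*, *Cpt1a*, *Cpt2*, *Glud1*, *Idh2*, and *Pcx*. *Pck1*, the gluconeogenic enzyme whose substrate derives from matrix malate, was at 1745 ± 365 and 2783 ± 467 CPM without overlap (adjusted *P* = 0.06797) and was called lower among the 5 mice with high *Xist* but not with the covariate (adjusted *P* = 0.06118). The choline dehydrogenase *Chdh*, which oxidizes choline in the matrix, was at 474.8 ± 77.7 and 438.5 ± 98.5 CPM (log2 fold change 0.12, SE 0.16), beside the fall of *Slc25a48*. The median log2 fold change of the 27 enzymes was -0.17.

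Lists of general mitochondrial genes were set beside the carriers as a whole, whose median was -0.15. Of 9 genes that report mitochondrial content, 8 had log2 fold changes below 0, such as *Atp5a1* of the ATP synthase (-0.15, SE 0.09), the exception being the citrate synthase gene *Cs* (0.04, SE 0.08). None of the 9 was called by edgeR's quasi-likelihood or exact test or by DESeq2, and none had an unadjusted *P* under 0.05 (median -0.09). Among 13 genes of the outer membrane pores and of the machinery that inserts carriers into the inner membrane, none was called, 2 were lower at an unadjusted *P* under 0.05, and DESeq2 called *Timm9* lower (median -0.12, 10 below 0). Over all genes, 49.5% were below 0 and 7.44% were lower at an unadjusted *P* under 0.05, and no difference between the lists was tested. Among 12 other inner membrane transport genes, which include the pyruvate carrier and the calcium uniporter, none was called by these 3 tests and 1 was lower at an unadjusted *P* under 0.05 (median 0.02). With *Xist* as a covariate, *Timm9* (log2 fold change -0.34, adjusted *P* = 0.04173) and *Sfxn1* (-0.30, 0.01773) of these lists were called lower. SLC25 proteins named outside the *Slc25a* series gave 3 tested genes, *Ucp2*, *Mtch1*, and *Mtch2*, and none was called by these tests or had an unadjusted *P* under 0.05.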

How the data were processed

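RNA-Seq counts of whole kidney from 4 Maf conditional KO and 4 Maf flox/flox mice were analysed, with genotypes and replicate numbers taken from the sample labels. The deposited counts are whole numbers that the authors made with featureCounts 2.0.1, per the file headers, on exons of the Ensembl release 102 annotation of GRCm38, without normalization and without strand. The submitters' processing notes name Subread 2.0.2 and edgeR 3.36.0. The aligner behind the deposited counts is not given in the sources used here. The other deposited value used, exonic length by the authors' annotation, served for RPKM. The paper's own values came from reads mapped to mm10 with CLC software, a quantile method, and an edgeR test, a route not repeated here. No column of per-sample values was left unused.

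Genes were filtered with filterByExpr, scaled by TMM, and compared with edgeR's robust quasi-likelihood test (edgeR 4.0.16, R 4.3.3) over all 8 mice without covariates. A gene was called at an adjusted *P* under 0.05 (Benjamini-Hochberg, over all 20149 tested genes). Levels are TMM-normalized CPM. Libraries of one genotype differed by more than sampling noise, so none was counted as a copy. Depth limited only the scarcest members, since 42 of 43 had at least 10 counts in all 8 libraries, and no member passed through 1 genotype alone. Members, lists, tests, and motifs were chosen with earlier results of these data known. Named carriers were those past the threshold in the main or *Xist* fits, the 10 smallest *P* values, the 10 highest levels, and a list of well-known tubule carriers. Of the members, 1 is counted but not reported here by name. Other members are named to complete their role group, or after their values were seen. Other settings tried were upper-quartile or RLE scaling, limma-trend (limma 3.58.1) after quantile normalization with 0.5 added to CPM, DESeq2 1.42.0, edgeR's exact test, other count filters, the replicate number as a block, *Xist* as a covariate, the 5 mice with high *Xist*, counts without mitochondrial and ribosomal RNA genes, an adjusted *P* under 0.01, and each mouse left out in turn. Scripts were tested on simulated counts. Overlapping exons came from the deposited coordinates, and shared 36-base sequences from transcripts of GRCm38.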

Additional observations from a re-analysis of the deposited data

Results flagged for a closer look

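*Slc25a48* in Maf flox/flox mouse 4 was at 34.4 CPM, apart from the other 3 Maf flox/flox mice at 27.6 to 28.7 CPM. The gap to the nearest mouse was 0.84 of the range of the group, above Dixon's limit for 4 samples. Over the 20 named carriers 40 groups of 4 mice were examined, 1 was past the limit, and chance would place about 2 past it. Without this mouse the carrier was still called.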

How the results depend on the processing

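The median SLC25 log2 fold change stayed below 0 under all settings, between -0.19 and -0.11, and 0 members were called higher under each of them. Against 3 members called lower, DESeq2 gave 6, a filter of 1 count in any mouse 6, *Xist* as a covariate 8, the 5 mice with high *Xist* 5, and an adjusted *P* under 0.01 gave 1. Leaving out 1 mouse gave 1 to 4, with 1 without Maf conditional KO mouse 2 or 3 (0.96% and 0.913% of all genes in those fits). The block fit described next also ended the call of the enzyme *Pcx*. Same-numbered mice did not deviate together (correlations -0.373, 0.152, -0.11, and -0.331), so they share only a number, and the fit with a replicate block called 1 member lower (0.551% of all genes), *Slc25a48*, with *Slc25a10* at an adjusted *P* of 0.1147 and *Slc25a22* at 0.1359. Over all genes, 318 were lower and 118 higher. These counts became 567 and 320 with DESeq2, 111 and 18 with the replicate block, 853 and 521 with *Xist* as a covariate, and 144 and 36 at an adjusted *P* under 0.01. The number higher was 214 with the exact test, 191 with a filter of 1 count in any mouse, and 322 among the 5 mice with high *Xist*. Leaving out 1 mouse gave 188 to 310 lower and 51 to 142 higher, and the cause of these shifts was not tested. *Slc25a15*, at 0.046, turned to -0.008 without Maf conditional KO mouse 2 and -0.006 without mouse 3 (adjusted *P* = 0.9866 and 0.9916), within a range of -0.008 to 0.102 over the mice left out. In all, 9 members near 0, *Slc25a21* and *Slc25a33* among them, changed sign in at least 1 of 20 fits, and 0 of the 9 were called in any of them. Upper-quartile factors moved the median of all genes from 0.003 to 0.047. With 4 mice per genotype and a biological coefficient of variation of 0.203, small changes of scarce carriers such as *Slc25a43* were not detectable.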

Other observations

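Of the 47 rows, 4 fell below the count rule and were not tested. The ornithine carrier paralog *Slc25a2* had 2 to 17 counts per mouse, *Slc25a41* 0 to 6, *Slc25a31*, the testis ADP/ATP carrier, 0 to 3, and *Slc25a54* 4 counts in Maf flox/flox mouse 3 and 0 in the others.

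The uncoupling protein *Ucp1* of brown fat, an SLC25 protein by sequence, had 12, 0, 2, and 80 counts in Maf conditional KO mice 1 to 4 and 1, 2, 461, and 0 counts in Maf flox/flox mice 1 to 4. The fat genes *Cidea* and *Plin1* were highest in the same mouse, Maf flox/flox mouse 3, at 157 and 248 counts, and next in Maf conditional KO mouse 4, at 34 and 50 counts. Without Maf flox/flox mouse 3, 2 members were called lower, *Slc25a48* and *Slc25a10*, against 1.01% of all genes in that fit.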
